A study of Macaca mulatta with 12 samples.

Results

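The miR-99, miR-100 and miR-125 family was examined in 12 small RNA sequencing profiles of 8 tissues of the rhesus macaque (Macaca mulatta). Its members were taken by name, as the pre-miRNAs of the study's list that begin with mml-mir-99a, mml-mir-99b, mml-mir-100, mml-mir-125a or mml-mir-125b. Of 832 pre-miRNAs that could be read from the list, 5 were members, namely mml-mir-99a, mml-mir-99b, mml-mir-100, mml-mir-125a and mml-mir-125b-1. They gave 10 mature miRNAs, 1 from each arm of each hairpin, out of 1219 mature sequences. All 10 had reads in all 12 profiles and passed the filter on low values, which 371 mature sequences passed. mml-mir-125b-2 was not analysed here, so that reads of its 5' arm, if it has the same sequence, were counted in miR-125b-5p.

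There were 2 profiles of kidney, of muscle, of large intestine and of small intestine, and 1 profile of each of occipital lobe, spinal cord, lung and liver. All samples came from 2 wild-type macaques aged 36 months that received no treatment, so that profiles of different tissues share animals, but the labels do not tie profiles to animals and the tests took the profiles as independent. The depth ranged from 22118095 to 25579064 valid reads per profile. In liver 35.9% of the valid reads were assigned to mature miRNAs, against 46.3% in lung to 68.4% in kidney 1 among the others. Levels scaled by the valid reads depend on this share. The neuronal miR-124a and miR-9 were highest in occipital lobe and the oligodendrocyte miRNAs miR-219-2 and miR-338 in spinal cord. The muscle miRNAs miR-133a and miR-206 were highest in both muscle profiles, and miR-122a in liver. The intestinal miR-192, miR-194-1 and miR-215 were highest in small intestine. The labels name these tissues. However, miR-192 and miR-194-1 were higher in liver than in either profile of large intestine, while miR-215 was lower in liver.

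MicroRNAs are cut from a hairpin, the pre-miRNA, whose arms each can give a mature miRNA. Bases 2 to 8 of a mature miRNA, the seed, pair with target messages, so that miRNAs with the same seed are grouped in a family. miR-99 and miR-100 are relatives of miR-10, and miR-125 is the vertebrate counterpart of lin-4, the first miRNA found in the worm. In mammals these miRNAs lie in clusters with a let-7 gene, and miR-125b is well known from brain and from blood stem cells.

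The mature sequences of the more abundant 5' arms are given first, with the seed in capitals, because the grouping and the base changes described later rest on them.
miR-99a-5p: aACCCGUAgauccgaucuugug
miR-99b-5p: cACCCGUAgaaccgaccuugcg
miR-100-5p: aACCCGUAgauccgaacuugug
miR-125a-5p: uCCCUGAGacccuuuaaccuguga
miR-125b-5p: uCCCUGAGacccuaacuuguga
Seed ACCCGUA was found in 3 mature sequences of the whole list, all of them members. Seed CCCUGAG was found in 3, of which 2 were members and the other was miR-670-5p. miR-99a-5p and miR-100-5p were the same at 21 of 22 positions and differed by U16A, counted from the 5' end with the base of miR-99a-5p first. miR-99b-5p differed from miR-99a-5p at 4 positions, and miR-125a-5p from miR-125b-5p at 7 of the 22 positions they share. All of these differences lay outside the seed, the first base of miR-99b-5p (A1C) included.

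The mature sequences of the 3' arms, as listed, have seeds of their own.
miR-99a-3p: aAGCUCGCuucuaugggucug
miR-99b-3p: aAGCUCGUgucuguggguccg
miR-100-3p: aAGCUUGUgucuauagguaug
miR-125a-3p: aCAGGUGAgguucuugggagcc
miR-125b-1-3p: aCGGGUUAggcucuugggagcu
Arms were named here by their position in the hairpin, because the list exchanges the names 5p and 3p for mml-mir-125a and mml-mir-125b-1. The hairpin of mml-mir-125b-1 shows this, with its arms in capitals and miR-125b-5p as the first of them.
mml-mir-125b-1: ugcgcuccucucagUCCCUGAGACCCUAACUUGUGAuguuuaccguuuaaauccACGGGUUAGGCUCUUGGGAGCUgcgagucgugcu

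The members lie in groups with let-7 genes in the list's build, Mmul_8.0.1. On the plus strand, mml-mir-99b (46927837 to 46927906) is followed after 105 bases by mml-let-7e and after another 390 bases by mml-mir-125a (46928481 to 46928566). On the minus strand of another chromosome, mml-mir-100 (115006675 to 115006754) lies 5618 bases from mml-let-7a-2 and 52552 bases from mml-mir-125b-1 (114954035 to 114954122). mml-mir-99a (31071139 to 31071219, minus strand) lies 652 bases from mml-let-7c. In RefSeq's gene table of the assembly T2T-MMU8v2.0, MIR99B, MIRLET7E and MIR125A lie within the gene SPACA6, which encodes a sperm membrane protein, and MIR125B-2 is the neighbour of MIRLET7C on the side away from MIR99A.

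The family was most abundant in the neural tissues, and 5' arms made up nearly all of its reads. Levels are given as reads per 10,000,000 valid reads (RPTM), and count reads that match the hairpin exactly and whose ends are at most 2 nucleotides from those of the listed mature miRNA. In such bulk samples, fewer cells of a type and less RNA per cell cannot be told apart. The members together held 5.30% of the assigned reads in occipital lobe and 4.61% in spinal cord, 1.77% in lung and 1.17% in liver, and from 0.210% in small intestine 1 to 0.837% in muscle 2 in the other profiles. Between 99.0% and 99.8% of the reads of the family came from the 5' arms in each profile.

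miR-99b-5p was the most abundant member in the neural tissues. It had 155299 RPTM in occipital lobe and 115653 in spinal cord, 20138 in lung, 7369 in liver, 13441 and 7003 in kidney, 4461 and 16106 in muscle, 4263 and 3585 in large intestine, and 4644 and 15857 in small intestine. Both neural profiles were above every other profile, and both profiles of large intestine were below every other, as they were for 5.39% of all 371 sequences. miR-125a-5p, its cluster neighbour, had 98442 RPTM in occipital lobe, 69776 in spinal cord, 49898 in lung, 4799 in liver, 14773 and 7825 in kidney, 9303 and 12401 in muscle, 4599 and 5743 in large intestine, and 5216 and 6763 in small intestine. Here lung was close to the neural profiles, and the next profile, kidney 1, was far below it.

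miR-100-5p followed another order. It had 46069 RPTM in spinal cord, 21486 in liver, 20294 in occipital lobe, 2918 in lung, 10292 and 4417 in kidney, 2652 and 10570 in muscle, 2285 and 2504 in large intestine, and 2111 and 12653 in small intestine. Liver thus lay between the neural profiles, and the profiles of muscle and of small intestine lay far apart. miR-99a-5p, which differs from it by 1 base, had 5019 RPTM in spinal cord, 4841 in occipital lobe, 3797 in liver, 1165 in lung, 1131 and 554 in kidney, 2131 and 3807 in muscle, 316 and 396 in large intestine, and 281 and 828 in small intestine. It was the lowest of the 5' arms in every profile, and liver and muscle 2 came close to the neural profiles.

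miR-125b-5p had 29133 RPTM in spinal cord, 17678 in occipital lobe, 7816 in lung, 4332 in liver, 2918 and 1468 in kidney, 8201 and 7603 in muscle, 1822 and 1868 in large intestine, and 1203 and 2499 in small intestine. Both neural profiles were the highest, followed by muscle and lung at like levels. Over the 12 profiles, the levels of single members spanned from 17.9-fold for miR-99a-5p to 43.3-fold for miR-99b-5p among the 5' arms.

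**Figure D1:**
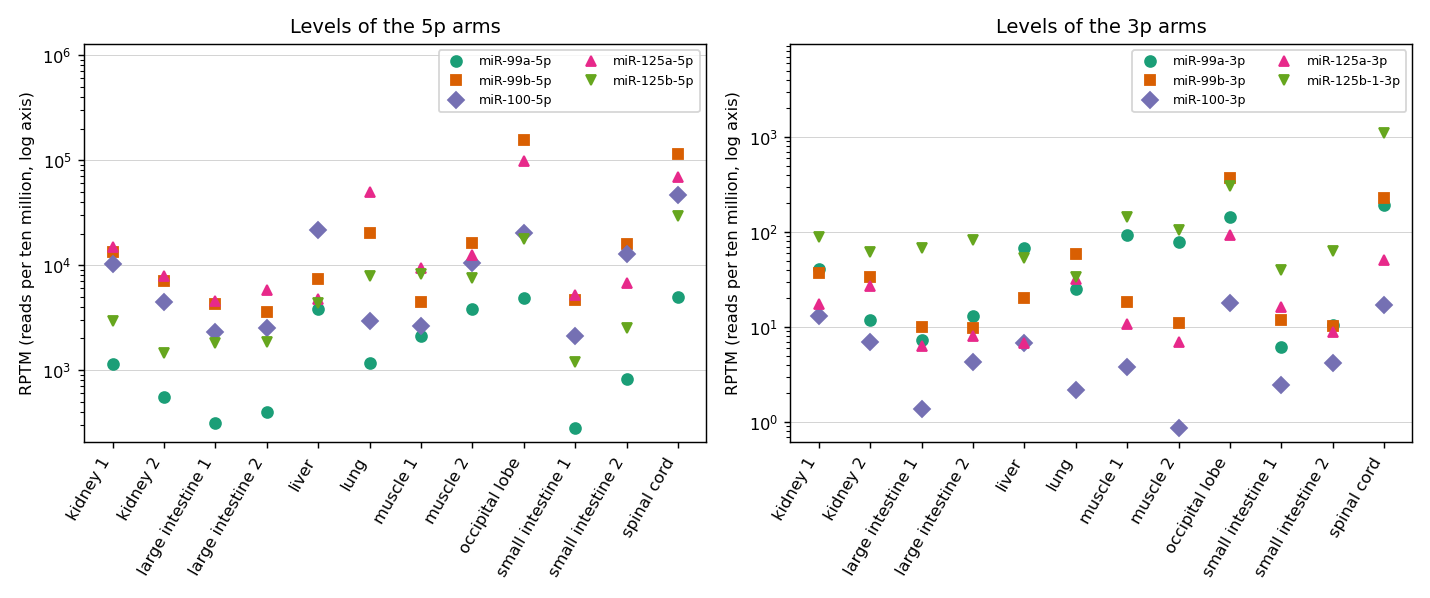
Levels of the 5p and 3p arms in RPTM (log axes) in the 12 profiles, 1 point for each mature miRNA and profile. miR-99b-5p and miR-125a-5p are above all other members in occipital lobe and spinal cord, and the 3p arms are far below the 5p arms.

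The orders of tissues rest on few gaps that exceed the spread between profiles of 1 tissue. The spread was taken as the largest difference on the log2(RPTM + 1) scale within the 4 pairs, which was 1.56 for miR-99a-5p, 1.85 for miR-99b-5p, 2.58 for miR-100-5p, 0.92 for miR-125a-5p and 1.05 for miR-125b-5p. For miR-99b-5p only the gap of 2.52 from spinal cord to lung exceeded it, and for miR-125a-5p only the gap of 2.21 from lung to kidney. For miR-125b-5p, 2 of the 7 gaps between neighbouring tissues did, and none for miR-99a-5p and miR-100-5p. Their neighbours in the order therefore do not differ beyond the spread.

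Levels were compared between 7 groups, with occipital lobe and spinal cord as 1 neural group, each against the mean of the other 6 groups. Folds of these tests are relative to TMM factors, which ranged from 0.555 in large intestine 2 to 2.35 in spinal cord, and can differ from ratios of the RPTM values. Liver and lung had 1 profile each, whose spread was taken from the other groups.

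In neural tissue, 8 of the 10 mature miRNAs were higher than in the other groups at an adjusted p under 0.05, and none was lower. Of all 371 sequences tested, 43.7% were higher and 24.3% lower, so that a rise was common in this comparison. The median log2 fold change was 1.53 over the members and 0.89 over all sequences. miR-99b-5p rose by 2.79 ± 0.43 (log2, SE, adjusted p = 0.000104) from a mean of 9687 RPTM in the other 10 profiles to 135476, and miR-99b-3p by 2.79 ± 0.38 (adjusted p = 3.87e-05). miR-125a-5p rose by 2.01 ± 0.31 (adjusted p = 0.000105) and miR-125b-5p by 1.54 ± 0.30 (adjusted p = 0.00057). The lesser arms miR-125b-1-3p (2.21 ± 0.36, adjusted p = 0.000173), miR-99a-3p (1.52 ± 0.42, adjusted p = 0.0063) and miR-125a-3p (1.42 ± 0.51, adjusted p = 0.0256) were higher too.

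miR-99a-5p had the smallest of these rises, 0.99 ± 0.37 (log2, SE, adjusted p = 0.0303). miR-100-5p was not called, at 1.22 ± 0.53 (adjusted p = 0.0545), nor was miR-100-3p at 1.03 ± 0.65 (adjusted p = 0.17). miR-100-5p passed without liver (1.54, adjusted p = 0.0198) or small intestine 2 (1.51, adjusted p = 0.00733), with 8 tissues as groups (1.18, adjusted p = 0.0489) and without a filter on low values (0.95, adjusted p = 0.0311). Both neural profiles were above every other profile for 9 of the 10 members and for 43.7% of all sequences. The exception was miR-100-5p, for which liver was above occipital lobe. The calls of miR-99a-5p and miR-125a-3p were lost with TMM factors on the valid reads, without a filter and with identical reads only (adjusted p between 0.0553 and 0.255). Tailed reads and reads of a single pre-miRNA lost that of miR-99a-5p too (0.93 and 0.82, adjusted p = 0.0708 and 0.0962). The call of miR-99a-5p was lost with DESeq2 (0.66, adjusted p = 0.169), and without kidney 1, kidney 2, large intestine 2, lung, muscle 2, occipital lobe or small intestine 1 (0.73 to 0.91, adjusted p between 0.0592 and 0.182). That of miR-125a-3p was lost with DESeq2 (1.06, adjusted p = 0.0875), and without occipital lobe it was 0.61 (adjusted p = 0.429). It was also lost without kidney 1, large intestine 2, liver or muscle 2 (1.17 to 1.26, adjusted p between 0.0557 and 0.0632).

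In muscle, edgeR called 3 members higher and none lower, with 1 lower member at an unadjusted p under 0.05, against 22.6% higher and 15.4% lower of all sequences. miR-99a-5p rose by 1.25 ± 0.36 (log2, SE, adjusted p = 0.0175), miR-99a-3p by 1.57 ± 0.42 (adjusted p = 0.0114) and miR-125b-5p by 0.91 ± 0.31 (adjusted p = 0.0356). That member, miR-99b-3p, had -1.19 ± 0.49 (adjusted p = 0.0756) and was called with DESeq2 (-1.15, adjusted p = 0.032), with 8 tissues as groups, with tailed reads and without spinal cord (adjusted p between 0.0282 and 0.0492). With identical reads only, miR-125a-5p was lower in muscle (-1.25, adjusted p = 0.009), and the call of miR-125b-5p was lost (0.58, adjusted p = 0.212). The latter was also lost with the valid reads as the scale, without a filter, with tailed reads and with reads of a single pre-miRNA (adjusted p between 0.0631 and 0.106). For no member were both muscle profiles above every other profile (8.63% of all sequences). Without muscle 2 no member was called in muscle (miR-99a-5p 0.85, adjusted p = 0.258; miR-99a-3p 1.74, adjusted p = 0.0663), and without muscle 1 only miR-99a-5p was. The call of miR-125b-5p was also lost without kidney 2 (0.85, adjusted p = 0.0646), large intestine 1 (0.89, adjusted p = 0.0588) or large intestine 2 (0.91, adjusted p = 0.0684).

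In liver, miR-99a-5p was higher by 1.59 ± 0.46 (log2, SE, adjusted p = 0.027), and miR-125a-5p fell by 1.82 on this scale (SE 0.55, adjusted p = 0.0329). This is 1 of 10 members in each direction, against 11.9% higher and 12.1% lower of all sequences. miR-100-5p had 1.64 ± 0.66 (adjusted p = 0.0939), which did not pass, but did without a filter on low values (1.64, adjusted p = 0.0042). Without small intestine 2, miR-125a-5p was -1.80 (adjusted p = 0.0544) and miR-100-5p was 1.93 (adjusted p = 0.0245).

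In lung, miR-125a-5p was higher by 1.56 ± 0.40 (log2, SE, adjusted p = 0.0215), and miR-125b-1-3p was lower by a log2 value of -2.30 ± 0.69 (adjusted p = 0.0407). Of all sequences, 6.47% were higher and 8.89% lower in lung. Without liver the adjusted p of miR-125a-5p was 0.0528 (1.29). The lower level of miR-125b-1-3p was lost with the valid reads as the scale (-1.66) and with TMM factors on them (-2.14). Identical reads only (-1.60), tailed reads (-2.16) and reads of a single pre-miRNA (-2.27) lost it too. It was also lost without 7 of the other profiles taken 1 at a time. These were both of kidney, both of large intestine, both of small intestine and muscle 2. miR-100-5p had -2.28 ± 0.94 in lung (adjusted p = 0.119), and was called lower there by DESeq2 (-2.22, adjusted p = 0.0422) and without a filter on low values (-2.07, adjusted p = 0.0163).

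In large intestine, miR-99a-5p was lower by a log2 value of -1.48 ± 0.44 (adjusted p = 0.0384), the only member called, against 11.9% higher and 4.85% lower of all sequences. The call was lost without either profile of kidney or of large intestine, without liver and without muscle 2 (-1.69 to -1.24). Identical reads only (-1.27, adjusted p = 0.0603) and reads of a single pre-miRNA (-1.47, adjusted p = 0.0708) lost it too. So did a fit of only the 8 profiles of tissues with 2 profiles (-1.39, adjusted p = 0.0665). No member was called by edgeR in kidney (12.9% of all sequences higher, 4.58% lower) or in small intestine (13.2% higher, 4.58% lower). At an unadjusted p under 0.05 there were 2 members in each, and DESeq2 called none in kidney and 1 in small intestine, miR-99a-3p, at -1.60 (adjusted p = 0.0165). The main edgeR fit gave miR-99a-3p -1.66 there (adjusted p = 0.0534). With the valid reads as the scale or TMM factors on them, without a filter and with tailed reads edgeR called it lower. So it did with 8 tissues as groups and without kidney 2, lung, occipital lobe or spinal cord. With identical reads only, miR-125a-5p was called higher in kidney (0.91) and lower in small intestine (-1.09). On the valid reads miR-125b-5p was called lower in kidney (-1.26).

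**Figure D2:**
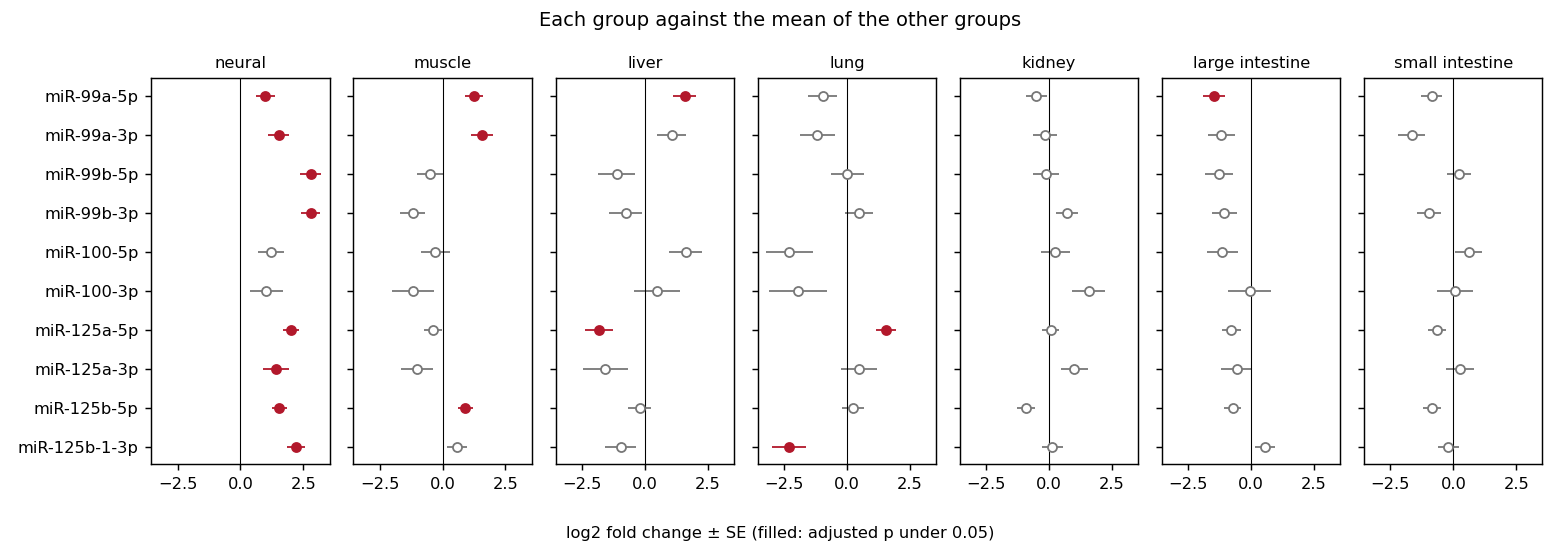
Log2 fold changes (± SE) of the 10 mature miRNAs in 7 groups, each against the mean of the other groups, with filled points at an adjusted p under 0.05. In the neural panel 8 of 10 points are filled and all 10 are above 0, and no point is filled in kidney and small intestine.

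The scale changed the number of called members in neural tissue and in the intestine. When levels were scaled by the valid reads and not by TMM factors, the median over all sequences moved from 0.89 to 1.97 in neural tissue, from 0.00 to -0.80 in large intestine and from -0.09 to -0.80 in small intestine. On that scale all 10 members were higher in neural tissue (62.5% of all sequences higher, 12.4% lower), 6 were lower in large intestine (21.3% lower) and 5 in small intestine (24.5% lower). In neural tissue the count fell to 6 with TMM factors on the valid reads (40.4% of all sequences higher, 27.5% lower). It was also 6 with DESeq2 (38.3% higher, 31.0% lower).

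Profiles of the same tissue differed more for some members than for others. Between muscle 1 and muscle 2, miR-100-5p was 3.99-fold and miR-99b-5p 3.61-fold higher in muscle 2, and between the profiles of small intestine they were 5.99-fold and 3.41-fold higher in small intestine 2. Only 1.89% of all 371 sequences differed as much as miR-100-5p in small intestine, and 4.31% in muscle. miR-125a-5p, which lies beside miR-99b in the genome, was 1.33-fold and 1.30-fold higher in the same profiles, and let-7e-5p, which lies between them, was 0.862 and 0.838 of its level in profile 1. In kidney all 5' arms were lower in kidney 2, at 0.429 (miR-100-5p) to 0.530 (miR-125a-5p) of kidney 1, while let-7e-5p was at 1.26 times kidney 1. The median difference of all 371 sequences was also negative there, at -0.37 (log2, kidney 2 minus kidney 1). Of them, 12.9% differed as much as miR-100-5p and 25.1% as much as miR-125a-5p. In large intestine the ratios of the 5' arms ran from 0.841 to 1.25. The level of miR-451, a red blood cell miRNA, was 295 RPTM in muscle 1 and 5006 in muscle 2, and 47.1 and 102 in the profiles of small intestine, and the part of blood in these differences was not tested.

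**Figure D3:**
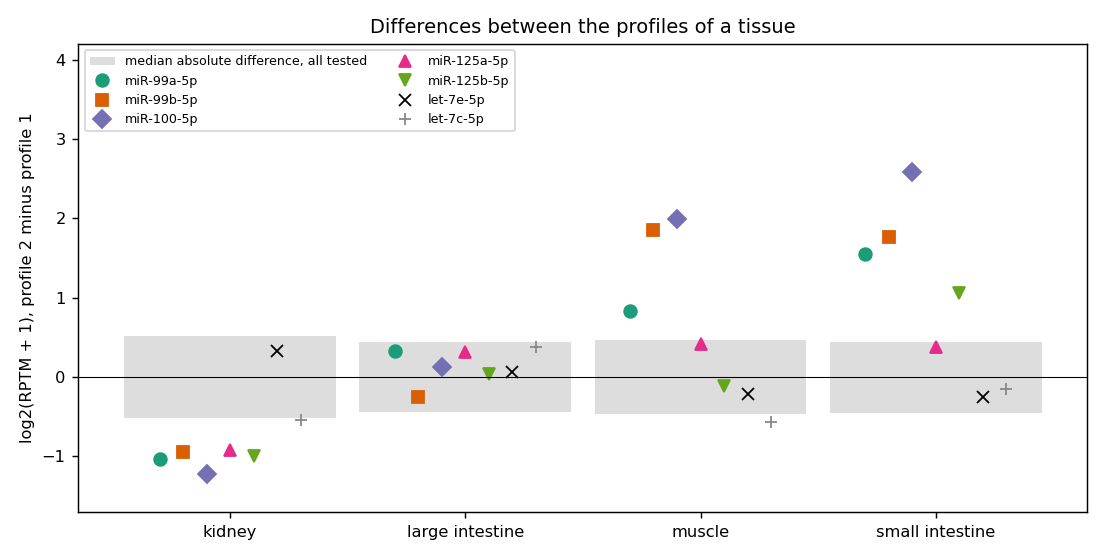
Differences between the profiles of a tissue on the log2(RPTM + 1) scale (profile 2 minus profile 1) for the 5' arms and the neighbours let-7e-5p and let-7c-5p. Grey boxes mark the median absolute difference over all 371 sequences, and miR-100-5p and miR-99b-5p stand far above them in muscle and small intestine.

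Cluster neighbours differed in how closely their levels followed each other. Over the 12 profiles, which share libraries and depth, the Pearson r of log2(RPTM + 1) was 0.91 for miR-99b-5p and miR-125a-5p, and 0.64 for miR-100-5p and miR-125b-5p. The log2 ratio of miR-100-5p to miR-125b-5p ranged from -1.63 in muscle 1 to 2.34 in small intestine 2, and differed by 2.10 between the muscle profiles. That of miR-99b-5p to miR-125a-5p ranged from -1.31 in lung to 1.23 in small intestine 2. miR-99a-5p and let-7c-5p had an r of 0.87, and miR-99a-5p and miR-125b-5p one of 0.88. Because miR-125b-5p may include reads of mml-mir-125b-2, its r with miR-100-5p may not be that of a single cluster.

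Among the sequences outside the family, those with the pattern most like a member were chosen by their r over the 12 profiles. For miR-99b-5p these were miR-598-3p (0.94), miR-181a-1-3p (0.93) and miR-758-3p (0.93), and for miR-125a-5p they were miR-181a-1-5p (0.97), miR-181a-1-3p (0.96) and miR-140-3p (0.93). For miR-125b-5p they were miR-140-3p (0.94), miR-29b-1-3p (0.94) and miR-151-5p (0.94). For miR-99a-5p they were miR-671-3p (0.93), miR-423-5p (0.92) and miR-340-3p (0.91). miR-100-5p had the lowest values, with miR-409-5p (0.89), miR-485-5p (0.83) and miR-127-3p (0.81). miR-409-5p had 312 RPTM in spinal cord, 166 in occipital lobe and 125.4 in liver, 4.59 and 57.1 in muscle, and 8.59 and 32.1 in small intestine.

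Of 5 neighbours and relatives on a list, the 5' arms of let-7c, let-7e, let-7a, miR-10a and miR-10b, let-7e-5p (2.26 ± 0.31, log2 and SE, adjusted p = 4.51e-05) and let-7c-5p (1.43 ± 0.30, adjusted p = 0.000857) were higher in neural tissue. miR-10a-5p, whose gene lies in a Hox cluster, was lower there (-4.15 ± 1.10, adjusted p = 0.00469). let-7a-5p had 0.89 ± 0.38 (adjusted p = 0.0512) and miR-10b-5p -1.90 ± 0.93 (adjusted p = 0.0862). let-7e-5p was higher in kidney (1.27 ± 0.33, adjusted p = 0.018) and lower in liver (-1.82 ± 0.57, adjusted p = 0.0361) and muscle (-1.09 ± 0.39, adjusted p = 0.0434). let-7c-5p was lower in small intestine (-1.47 ± 0.36, adjusted p = 0.0134). miR-10b-5p was higher in kidney (4.67 ± 0.70, adjusted p = 0.000472), muscle (3.05 ± 0.69, adjusted p = 0.00425) and large intestine (2.31 ± 0.70, adjusted p = 0.041).

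The 3' arms gave few reads, and their share differed between hairpins. Over all profiles, they made up 2.76% of the reads of mml-mir-99a, 2.44% of mml-mir-125b-1, 0.221% of mml-mir-99b, 0.099% of mml-mir-125a and 0.0587% of mml-mir-100. The 5' arm reads of mml-mir-125b-1 may include those of mml-mir-125b-2, which would lower its 3' share. miR-125b-1-3p had 1109 RPTM in spinal cord and 308 in occipital lobe and 144 in muscle 1, and 33.2 in lung, its lowest. miR-99b-3p had 366 RPTM in occipital lobe and 228 in spinal cord, and 58.6 or less elsewhere. miR-100-3p reached only 17.8 RPTM, with 194 reads in all profiles together.

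Arm use, the log2 ratio of 5' to 3' arm reads with 1 added to both, differed in 1 of 35 comparisons. The 5' arm of mml-mir-125b-1 had 17877 reads in lung and the 3' arm 76, so that the 3' arm made up 0.423% (Wilson 95% interval 0.338 to 0.529%). In the other profiles this share lay between 1.21% in liver and 4.25% in large intestine 2. Reads of mml-mir-125b-2, if its 5' arm has the same sequence, would be counted in the 5' arm only. Their part in this ratio was not tested. The log2 ratio in lung was higher by 2.50 ± 0.49 (SE, limma, adjusted p = 0.0211), and 2.65% of the 113 pre-miRNAs tested were higher in lung. Lung had 1 profile, and with reads that carry a 3' tail counted too the ratio was 1.92 (adjusted p = 0.134), while without large intestine 1 it was 2.53 (adjusted p = 0.0502). In the other 6 groups limma called no member, with 2 at an unadjusted p under 0.05.

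The 5' ends of miR-125a-5p, miR-125b-5p and miR-100-5p were at the annotated base in 99.8%, 98.7% and 98.6% of exactly matching reads with ends within 5 nucleotides. miR-99a-5p had 87.9% there, and 2.08% and 7.93% of its reads began 3 and 4 bases later. For miR-99b-5p 96.5% were annotated and 1.40% and 1.74% began 3 and 4 bases later. Such reads lack part of the seed.

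The listed 3' arms of the miR-99 and miR-100 hairpins did not begin where the reads did. A start 1 base earlier was found in 99.3% of the reads of miR-99a-3p, 97.9% of miR-99b-3p and 98.0% of miR-100-3p, in which no read had both listed ends. The leading reads were these, with a 3' tail that does not match the hairpin in capitals.
miR-99a-3p, leading read: caagcucgcuucuaugggucugu
miR-99b-3p, leading read: caagcucgugucuguggguccgA
miR-100-3p, leading read: caagcuugugucuauagguaug
They made up 46.7%, 25.1% and 89.6% of the reads of these arms. Their seeds are thus moved by 1 base from those of the listed sequences. In these reads the seed is AAGCUCG for miR-99a-3p and also for miR-99b-3p, but AAGCUUG for miR-100-3p. The leading reads of miR-99a-3p and miR-99b-3p thus share a seed, which the listed sequences do not. miR-125a-3p and miR-125b-1-3p began at the listed base in 93.2% and 98.7% of reads.

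The test of shifted 5' ends called 2 of 56 comparisons, both of miR-99b-3p, higher in neural tissue (1.99 ± 0.33 on the log2 odds scale, adjusted p = 0.0112) and lower in muscle (-1.60 ± 0.33, adjusted p = 0.0452). Of the 243 mature sequences tested, 4.94% were higher and 7.82% lower in neural tissue. In muscle 2.06% were called each way, in small intestine 0.823% each way, in liver 2.88% up and 2.06% down, and in large intestine 0.412% up. The share of shifted reads itself was between 97.9% and 100% in all profiles, from 22 to 853 reads, and with 0.5 added to both counts such log odds follow the number of reads. The neural call was lost without occipital lobe (2.04, adjusted p = 0.0511) or spinal cord (1.93, adjusted p = 0.0856), and the muscle call under each profile left out except liver.

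At the 3' end the members were less fixed. miR-125a-5p ended before the listed base in 82.4% of its reads, most often 2 bases early (48.7%), so that its leading read has 22 bases, not the 24 of the list.
miR-125a-5p, leading read: ucccugagacccuuuaaccugu
For the other 5' arms, 36.1% (miR-100-5p) to 52.7% (miR-99b-5p) of the reads ended early. The share of miR-125a-5p was lowest in kidney 2 (68.7%) and highest in muscle 2 (92.2%), and that of miR-125b-5p was lowest in kidney 1 (28.8%) and highest in lung (61.8%). limma called none of the 56 comparisons of early 3' ends, with 11 at an unadjusted p under 0.05, 5 of them in kidney. Few of the 243 sequences were called at all, namely 0.823% higher and 1.23% lower in muscle, 0.823% lower in kidney, 0.412% each way in neural tissue, and 0.412% higher in both parts of the intestine.

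Among tails that the hairpin does not encode, A was the most frequent on 4 of the 5' arms, all but miR-125a-5p, on which C tails were in 13.9% of reads. C tails were also in 23.1% of the reads of miR-99a-3p and in 13.9% of those of all mature miRNAs. Over all profiles, 29.9% of the reads of miR-125b-5p, 29.4% of miR-100-5p, 14.6% of miR-99a-5p, 12.01% of miR-99b-5p and 8.74% of miR-125a-5p ended in a tail of 1 or 2 A, and 5.53% of the reads of all mature miRNAs did. The read with 1 added A was the second most abundant of miR-100-5p and of miR-125b-5p, at 25.95% and 24.4% of their reads.
miR-100-5p, with A tail: aacccguagauccgaacuugugA
miR-125b-5p, with A tail: ucccugagacccuaacuugugaA
In miR-100-5p the share ranged from 25.3% in spinal cord to 35.1% in lung. In miR-125b-5p it was 15.7% in lung, 16.9% and 32.0% in muscle, 29.8% and 44.3% in small intestine, 37.1% and 28.8% in kidney, 23.6% and 25.5% in large intestine, 41.5% in liver, 32.8% in occipital lobe and 28.8% in spinal cord. miR-125a-5p had 19.9% in muscle 2, 18.2% in small intestine 2 and 13.7% in liver, and between 6.43% and 8.66% elsewhere.

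**Figure D4:**
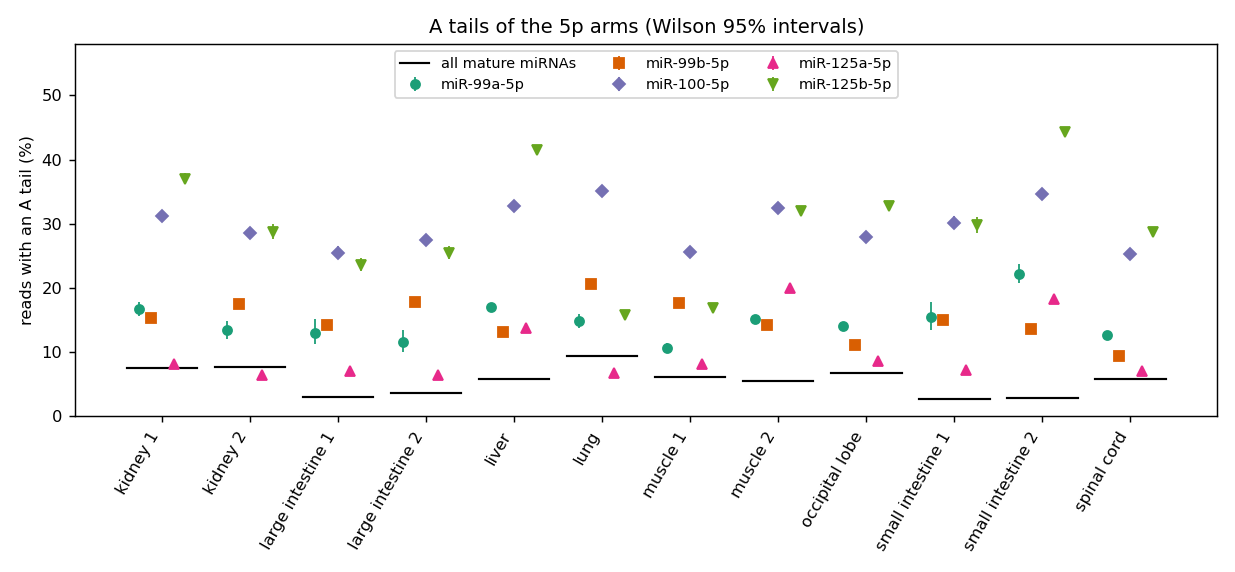
Share of reads with an A tail (%, Wilson 95% intervals) for the 5' arms in the 12 profiles, with black lines for all mature miRNAs. miR-100-5p and miR-125b-5p are mostly above 20%, and miR-125a-5p stands out in muscle 2 and small intestine 2.

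U tails were rare on the 5' arms, from 0.835% in miR-125a-5p to 3.48% in miR-99b-5p over all profiles, but took 30.6% of the reads of miR-125b-1-3p and 22.7% of miR-99b-3p. The 3' adapter begins with T, and whether some of these U tails are left from it was not tested. A tails of miR-125b-1-3p were in 15.7% of its reads in occipital lobe, 17.8% in spinal cord and between 21.4% and 36.8% elsewhere. This was the only call among 56 comparisons of A tails, lower in neural tissue by a log2 odds of -1.02 ± 0.22 (limma, adjusted p = 0.0432), against 4.12% of 267 sequences lower and 0.749% higher there. In the other groups at most 3.37% were called in a direction, in muscle, and 1.12% were lower in small intestine. The call was lost under every other minimum of reads, with tails of 1 nucleotide and without each profile (adjusted p between 0.0517 and 0.257). In the remaining A tail comparisons limma called none, with 3 at an unadjusted p under 0.05, and for U tails it called none of 56, with 1. Of all sequences, 2.62% had more and 7.12% fewer U tails in neural tissue, 1.87% more and 1.12% fewer in muscle, and 0.749% more and 1.87% fewer in liver. C tails on miR-125a-5p differed between profiles of a tissue, with 7.11% and 16.04% in kidney and 19.97% and 6.70% in large intestine, and so did those of all mature miRNAs, with 8.46% and 21.2% in kidney and 24.0% and 8.19% in large intestine.

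A change from C to U was frequent at 1 position in 4 of the 5' arms. The changed position is the C in capitals.
miR-99a-5p: aacccguagaucCgaucuugug
miR-100-5p: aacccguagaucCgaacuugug
miR-125a-5p: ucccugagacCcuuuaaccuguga
miR-125b-5p: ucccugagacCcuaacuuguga
It was C13U in miR-99a-5p and miR-100-5p and C11U in miR-125a-5p and miR-125b-5p, counted from the 5' end of the mature miRNA, which is position 25 of each of these 4 hairpins. The pooled levels were 2.39%, 2.25%, 2.24% and 5.60% of the reads over the position. The other C positions of these arms were changed in 0.0209% to 0.364% of reads. The median of 767 C positions of all mature miRNAs with at least 10000 reads, the members included, was 0.0807%. Of these positions 13 were at 1% or more, among them the 4 sites. With each site itself counted, 3 positions were at least as high as that of miR-125b-5p. For miR-99a-5p, miR-100-5p and miR-125a-5p there were 6, 7 and 8. In miR-99b-5p the most changed C was also at 13 (C13U), but at a pooled level of 0.283%.

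By the criteria of a level of at least 5%, at least 10 changed reads and an adjusted p under 0.05 (exact binomial, one-sided, for an error rate of 0.001), the change was significant in 9 of 12 profiles in miR-125b-5p and in 4 in miR-100-5p. Of all C-to-U changes seen, 2.39% were significant in at least 1 profile. The adjusted p was at most 4.82e-05 for all 5 sites in all 12 profiles, so that the level decided the calls. With a level of at least 1%, miR-125a-5p passed in 12 profiles, miR-99a-5p in 11 and miR-100-5p in 9.

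The level varied most in miR-100-5p. It was 10.4% in lung (Wilson 95% interval 9.92 to 10.9%), 5.71% and 8.52% in large intestine, 7.06% and 0.947% in muscle, 3.37% and 0.863% in small intestine, 1.75% and 3.19% in kidney, 2.39% in spinal cord, 2.04% in occipital lobe and 0.833% in liver (0.780 to 0.890%). Liver, small intestine 2 and muscle 2, with the lowest levels, had more miR-100-5p than the other profiles outside the neural tissues. In miR-125b-5p the level ran from 2.88% in liver to 11.6% in large intestine 2 (10.97 to 12.4%), with 7.32% in large intestine 1, 6.78% and 4.50% in muscle and 6.03% and 4.48% in small intestine. miR-99a-5p had 0.867% in liver and at most 3.61%, in muscle 2, and miR-125a-5p ran from 1.47% in muscle 2 to 3.43% in large intestine 2. miR-99a-5p and miR-100-5p, with the same bases around the site, thus differed in muscle 2 by more than their intervals (3.31 to 3.93% and 0.860 to 1.04%). These intervals cover counting error only, since the reads carry no molecular identifiers.

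Given as amounts, the unchanged and changed forms of miR-100-5p moved apart. These amounts count all aligned reads over the position, also those with a 3' tail or 1 mismatch. The unchanged form can thus exceed the levels given above, which count exact matches only. The unchanged form had 4275 RPTM in muscle 1 and 18502 in muscle 2, 4.33-fold more, while the changed form had 325 and 177. In small intestine the unchanged form had 3620 and 23409 RPTM (6.47-fold), and the changed form 126 and 204 (1.61-fold). Over the 12 profiles, the unchanged form of miR-100-5p spanned 20.1-fold and the changed one 14.1-fold. For miR-125b-5p in muscle the unchanged form was 1.21-fold and the changed form 0.785 of profile 1. For miR-99a-5p both forms were higher in muscle 2, by 1.85-fold and 1.99-fold.

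**Figure D5:**
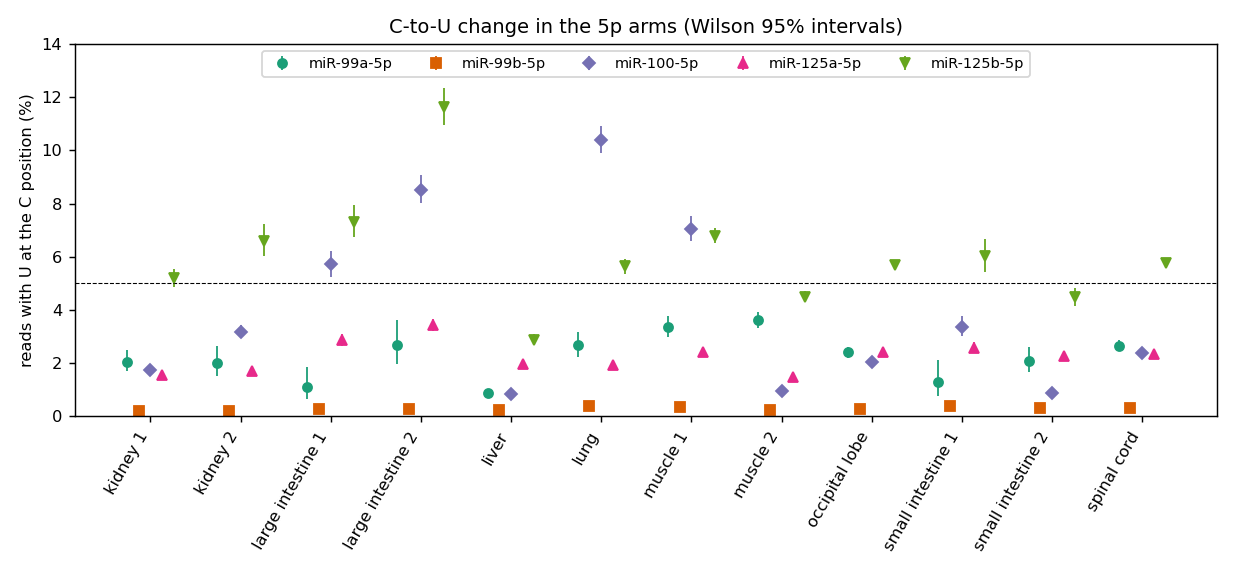
Level of the C-to-U change (% of reads over the position, Wilson 95% intervals) at the most changed C of each 5' arm in the 12 profiles, with the 5% criterion dashed. miR-100-5p and miR-125b-5p pass it in 4 and 9 profiles, and miR-99b-5p stays below 0.4% in all.

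2 other changes, chosen after their values were seen, reached the same criteria, which 2.05% of all base changes seen did in at least 1 profile. The first base of miR-99a-5p was G in place of A (A1G) in 7.37% of reads in lung, 6.90% in occipital lobe and 4.23% in spinal cord, and in at most 1.62% in the others. In miR-99b-3p A2G was found in 8.45% in occipital lobe and 8.05% in spinal cord, with 4.08% in small intestine 2, 3.02% in lung and at most 1.53% in the others.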

How the data were processed

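RNA was isolated with TRIzol and sequenced as small RNA libraries. The authors kept reads with high sequencing scores, removed the 3' adapter, discarded sequences under 18 nucleotides and deposited the counts of unique sequences, without normalization. Python 3.11.15 scripts aligned them to the pre-miRNA sequences of the study's list without gaps, and allowed 1 mismatch and 2 added nucleotides at the 3' end. The filter kept mature sequences whose mean reached 5 RPTM and whose standard deviation reached 1. Levels were tested with edgeR 4.0.16 (quasi-likelihood, TMM factors, two-sided) and, as an alternative, DESeq2 1.42.0, both in R 4.3.3. Arm ratios and the log2 odds of tails and ends were tested with limma 3.58.1 (with trend, two-sided), over hairpins with a mean of at least 10 reads on each arm and sequences with at least 100. Adjusted p-values are Benjamini-Hochberg values over all features tested. The profiles came from 2 animals that the labels do not tie to profiles, so that p-values measure the spread between profiles only. In simulated data edgeR called 71 of 74 sequences changed 8-fold in muscle, of 371, with 1 false call. This did not cover smaller changes, such as the folds of 1.88 to 2.97 of the members called in muscle. Nor did it cover changes in groups of 1 profile. The members, lists and tests were chosen with earlier results of these data known. Named are all members, the 3 sequences most correlated with each 5' arm, the listed neighbours and the most changed C of each 5' arm.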

Additional observations from a re-analysis of the deposited data

How the results depend on the processing

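The calls of members given above and the pooled C-to-U levels were followed under each alternative. Of these values, 294 kept their call or, for C-to-U levels, moved less than the spread between profiles, 93 lost it and none changed sign. Calls that members gained only under an alternative are not in these counts. In neural tissue, 8 members were higher, 4 with only reads identical to the listed sequence, which miR-99a-3p and miR-99b-3p lack, and 6 to 9 without 1 profile. Over kidney, muscle and both parts of the intestine 3 members were higher and 1 lower (0 to 3 and 0 to 3 without 1 profile). With the replicate block on the 8 numbered profiles 7 were higher and 0 lower, and on the same profiles without the block 7 and 1; the 4 gained calls were in kidney, where the other groups then lack the neural tissues. The correlations of the deviations of same-numbered profiles ranged from -0.14 to 0.15. Such values cannot tell numbers that do not pair the profiles from small differences between animals. Beside the lower call of miR-99a-3p in small intestine, the block changed no call of the fit without it. Lower counts were 12 with the valid reads as scale, 3 with DESeq2, without a filter and with 8 tissues as groups, 4 with tailed reads, 2 with identical reads and with TMM on the valid reads (chosen after seeing the data), and 0 with reads of a single pre-miRNA. In liver and lung 2 members were higher (0 to 3 without 1 profile, 1 with reads of a single pre-miRNA, 3 without a filter) and 2 lower (0 to 2, 3 with DESeq2 and without a filter, and 1 with each of both other scales, identical reads, tailed reads and reads of a single pre-miRNA). Beside the missing identical reads, the cause was not tested.

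Arm use had 1 call (0 to 1 without 1 profile) and 0 with tailed reads. A tails had 1 (0 to 0), and 0 with a minimum of 10 or of 1000 reads and with tails of 1 nucleotide. Shifted 5' ends had 2 (0 to 2), 1 with a minimum of 10, 0 with 1000, and 0 on the 8 numbered profiles with or without the replicate block. C-to-U calls for miR-99a-5p, miR-99b-5p, miR-100-5p and miR-125a-5p were 0, 0, 4 and 0. With a level of at least 1% they were 11, 0, 9 and 12, and 12 each with no level minimum. Depth limits the 3' arms most: miR-100-3p had 2 to 41 reads in a profile, and liver and lung have no replicates.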
